A study of Mus musculus with 36 samples.

Results

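The 8 genes described here, Mbp, Pmp22, Mag, Prx, Cnp, Ncmap, Drp2 and Mal, encode proteins of peripheral myelin. They were taken by name from the count table, where all 8 had 1 row each among 52636 rows, by a rule that uses no measured value. RNA had been sequenced from 3 kinds of fluorescent cells sorted from diaphragm, pectoralis, forelimb and hindlimb muscles of juvenile S100β-GFP;NG2-dsRed mice: S100β-GFP+;NG2-dsRed+ cells, the perisynaptic Schwann cells (PSCs), S100β-GFP+ cells and NG2-dsRed+ cells. Every mouse carried both transgenes, B6;D2-Tg(S100b-EGFP)1Wjt/J and Tg(Cspg4-DsRed.T1)1Akik/J, so the groups differed in which reporter a cell used and not in genotype or treatment. GFP marks cells that use the S100b promoter and dsRed marks cells that use the promoter of Cspg4, the gene for NG2, and either promoter can be active in cells outside the Schwann cell lineage. Of 12 labelled libraries per kind, 9 PSC, 8 S100β-GFP+ and 10 NG2-dsRed+ libraries were in the table, each from a single mouse. The mice were between P15 and P21 or P22. The labels give an upper age that rises with the library number from 21 and is 46 for every library from 26 on, so age was not used.

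Myelin is the spiral of membrane that a Schwann cell wraps around an axon of large calibre. In its compact layers the cytoplasm is squeezed out and the membranes are held together by adhesive and basic proteins, while cytoplasm remains in channels at the inner and outer edges and beside the nodes. PSCs cover the nerve terminal at the neuromuscular junction and make no myelin. Transcription of myelin genes in Schwann cells needs the transcription factor Sox10, which is present through the whole lineage, and Egr2, which is switched on at the onset of myelination.

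Before the members were compared, the sorted cells were checked against genes that mark cell types. Levels are given as CPM, counts per 1000000 counts after TMM scaling of the libraries. Cspg4 had a mean of 689 ± 132 CPM (SD, n = 9) in PSCs, 665 ± 138 (n = 10) in NG2-dsRed+ cells and 71.0 ± 42.3 (n = 8) in S100β-GFP+ cells. S100b, which encodes the calcium-binding protein S100β, stood at 255 ± 198 CPM in PSCs, 6.54 ± 4.90 in NG2-dsRed+ cells and 29.4 ± 10.1 in S100β-GFP+ cells, so the reporter's own gene was higher in the double-labelled than in the S100β-GFP+ cells (log2 fold change 3.12 ± 0.49 (SE), adjusted p = 5.43e-06). Of 8 markers of the Schwann cell lineage, S100b and Sox10 among them, 7 could be tested and for all 7 PSCs exceeded S100β-GFP+ cells. Their summed level was 28.0 to 88.5 CPM in NG2-dsRed+ cells, 64.8 to 394 CPM in S100β-GFP+ cells and 2331 to 3535 CPM in PSCs.

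The S100β-GFP+ libraries also held markers of other cells. Summed over 8 fibroblast markers they had 19380 to 44188 CPM, against 757 to 2888 CPM in PSCs and 2685 to 19435 CPM in NG2-dsRed+ cells. Dcn, which encodes the matrix proteoglycan decorin, was at 2560 to 7026 CPM in S100β-GFP+ cells and at 210 to 438 CPM in PSCs. Summed over 8 macrophage and leukocyte markers, S100β-GFP+ libraries had 199 to 1372 CPM and PSCs 2.98 to 11.0 CPM. Pericyte and smooth muscle markers, 10 in number, summed to 7389 to 15876 CPM in NG2-dsRed+ cells, 244 to 1652 CPM in S100β-GFP+ cells and 791 to 1469 CPM in PSCs. The 10 include Cspg4, whose promoter drives dsRed. Its mean was 689 CPM in PSCs and 71.0 CPM in S100β-GFP+ cells, so the sums partly restate the sort. Against S100β-GFP+ cells 5 of the 10 were lower in PSCs, 1 was higher and 4 did not pass. Their median log2 fold change was -1.02. Of all genes 24.1% were called lower and 22.9% higher in PSCs. The 8 endothelial markers summed to 1614 to 3821 CPM in NG2-dsRed+ cells and to 125 to 697 CPM in PSCs. Among the S100β-GFP+ libraries, 17, 22 and 14 had 2883, 1551 and 907 CPM of these endothelial markers and the other 5 had 134 to 211 CPM. The 6 oligodendrocyte markers, the myelin-forming cells of the brain, summed to at most 11.0 CPM in any library, and Olig2 had no count in the 9 PSC libraries. Markers of melanocytes, 5 in number, were highest in PSCs, at 31.3 to 136 CPM. They summed to 1.94 to 21.6 CPM in S100β-GFP+ and to 0.315 to 4.40 CPM in NG2-dsRed+ cells. The 8 markers of satellite cells and muscle fibres summed to 162 to 1426 CPM in PSCs. In S100β-GFP+ and NG2-dsRed+ cells their sums were 141 to 520 and 139 to 542 CPM. PSC libraries 18 and 20 held the most, 1426 and 772 CPM. The data thus go only partly with the name Schwann cells for the S100β-GFP+ libraries, which are called by their label here. In RNA pooled from many cells, fewer cells of a type and less RNA per cell cannot be told apart.

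**Figure D1:**
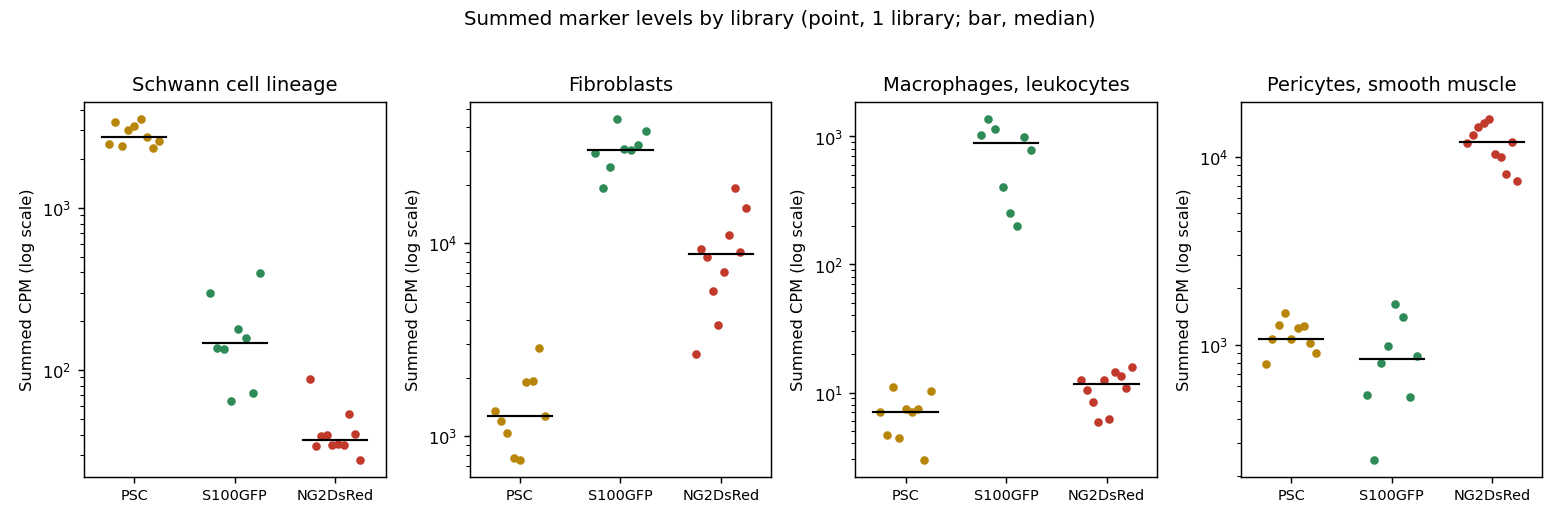
Summed CPM (log scale) of 4 marker lists in each library, with PSC, S100GFP and NG2DsRed libraries in separate columns, 1 point per library and a bar at the median. Schwann cell markers were highest in PSCs, at 2331 to 3535 CPM, and leukocyte markers in S100GFP libraries, at 199 to 1372 CPM.

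Depth was alike in the 3 groups. Libraries had between 5221655 and 9592875 counts on genes. Between 3.64% and 40.0% of these fell on Lars2, Gm23935 and Gm15564, and S100β-GFP+ libraries 14, 17 and 22 detected 25890, 29103 and 38568 genes, where the other 5 detected 19669 to 23292. Every member had counts in all 27 libraries, with the fewest, 3, for Mag in an NG2-dsRed+ library. All 8 members passed the filter on low counts.

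Against S100β-GFP+ cells, Cnp and Pmp22 were higher in PSCs, Drp2 was lower, and 5 members (Mbp, Mag, Prx, Ncmap and Mal) did not pass the test. The edgeR quasi-likelihood test, with p-values adjusted over 15330 genes, called 22.9% of all genes higher and 24.1% lower in PSCs, and the members' 2 higher and 1 lower of 8 are to be read against these shares. The median log2 fold change was -0.31 over the 8 members and 0.04 over all genes.

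Cnp encodes CNPase, a cyclic nucleotide phosphodiesterase of the cytoplasm-filled channels of the sheath that is left out of compact myelin and that glia make before they wrap axons. In PSCs its lowest, median and highest levels were 281, 371 and 1074 CPM. In S100β-GFP+ cells these were 55.2, 128 and 277 CPM. The ranges did not overlap, although the highest S100β-GFP+ library, 33, at 277 CPM, lay just under the lowest PSC library, 36, at 281 CPM. The mean of 435 CPM against 136 CPM gave a log2 fold change of 1.68 ± 0.31 (SE, adjusted p = 4.54e-05). Leaving out each library in turn kept the call, with values of 1.44 to 1.91, the lowest of them without PSC library 18, which held the 1074 CPM. Cnp lies on chromosome 11 from 100574904 to 100591729 (GRCm38, plus strand), and its exons overlap those of Dnajc7 on the opposite strand. The use of strand in counting was not given in the sources used here. Reads of these overlapping exons cannot be told apart without it. Dnajc7 had 48.3 to 98.5 CPM in PSCs and 33.0 to 45.9 CPM in S100β-GFP+ cells, a log2 fold change of 0.58 ± 0.15 (SE, adjusted p = 0.00184), and its part in the values of Cnp was not tested.

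Pmp22, which encodes a tetraspan membrane protein of compact myelin whose gene dosage is altered in common inherited neuropathies, was the most abundant member in each kind of cell. Its lowest, median and highest levels were 1310, 1455 and 1626 CPM in PSCs. In S100β-GFP+ cells they were 629, 912 and 1192 CPM. All PSC libraries thus lay above all S100β-GFP+ libraries, and the spread was narrower in PSCs (SD 101 CPM) than in S100β-GFP+ cells (SD 218 CPM). The log2 fold change was 0.70 ± 0.18 (SE, adjusted p = 0.00226). Cnp and Pmp22 were therefore the 2 members of 8 whose ranges did not overlap and were higher in PSCs, which 5.24% of all genes did.

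The sequence before the start sites is shown for Cnp and Pmp22, the members higher in PSCs, and for Mag, one of those that were not. RefSeq (GRCm38.p6) lists 1 start for Cnp, 4 for Pmp22 and 3 for Mag, and the counts per gene do not separate them. Of the 250 bases before a start, the longest stretch outside annotated exons was searched and is printed. Both strands were searched for ACAAAG, letters bound by SOX factors, and for GCGNGGGCG, letters bound by EGR factors. Pmp22 is known to be transcribed from alternative starts, the most upstream of which is the one associated with myelinating Schwann cells, so its first and second starts are given. Capitals mark a match to ACAAAG on either strand. Shown are Cnp at chr11:100574689-100574903 on the plus strand, Pmp22 at chr11:63128732-63128981 and chr11:63131207-63131456 on the plus strand, and the most upstream start of Mag at chr7:30914923-30915172 on the minus strand.
Cnp: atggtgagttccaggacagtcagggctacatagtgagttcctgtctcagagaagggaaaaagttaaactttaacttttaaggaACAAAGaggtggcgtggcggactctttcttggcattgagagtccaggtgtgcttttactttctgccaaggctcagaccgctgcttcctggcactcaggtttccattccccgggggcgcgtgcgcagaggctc
Pmp22 first start: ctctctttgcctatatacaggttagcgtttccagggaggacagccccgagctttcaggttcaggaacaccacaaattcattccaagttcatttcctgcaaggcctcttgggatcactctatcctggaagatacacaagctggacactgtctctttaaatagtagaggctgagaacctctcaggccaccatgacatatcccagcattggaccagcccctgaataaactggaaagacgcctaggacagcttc
Pmp22 second start: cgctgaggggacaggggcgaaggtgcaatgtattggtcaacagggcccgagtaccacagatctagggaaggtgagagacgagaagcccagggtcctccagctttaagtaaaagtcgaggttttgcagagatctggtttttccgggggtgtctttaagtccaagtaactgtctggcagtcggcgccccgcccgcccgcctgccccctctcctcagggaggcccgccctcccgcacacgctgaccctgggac
Mag: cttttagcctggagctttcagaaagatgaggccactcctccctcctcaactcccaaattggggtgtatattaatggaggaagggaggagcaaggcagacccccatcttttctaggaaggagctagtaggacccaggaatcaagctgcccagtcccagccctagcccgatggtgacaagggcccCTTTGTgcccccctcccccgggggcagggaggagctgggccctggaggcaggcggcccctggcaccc
ACAAAG was found once before the start of Cnp and once before that of Mag, beginning 167 and 67 bases upstream, and not in the stretches searched for Pmp22. Of all 32851 RefSeq promoter windows, searched over the full 250 bases with exons included, 16.5% hold it. GCGNGGGCG was in none of the 12 stretches of the 6 members searched, and 4.7% of all full windows hold it. Some of these stretches were shorter than a full window, so the shares are not for equal lengths. A match is a run of letters and does not show a bound site, and its absence says nothing of the factor.

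Drp2 encodes a protein related to dystrophin, which joins with periaxin and dystroglycan under the outer membrane of the sheath, where it is pressed against the abaxonal surface. In PSCs it ran from 12.6 through a median of 23.6 to 39.4 CPM. In S100β-GFP+ cells it ran from 12.2 through 42.5 to 90.3 CPM. The ranges overlapped, with S100β-GFP+ libraries 27, 14 and 11 below the highest PSC library, and the means of 23.8 and 47.7 CPM gave a log2 fold change of -0.999 ± 0.350 (SE, adjusted p = 0.0201). This call was lost without S100β-GFP+ library 17, the highest for Drp2 (-0.81, adjusted p = 0.0625), and without libraries 14, 17 and 22 (-0.69, adjusted p = 0.141). It was also lost by limma-voom (-0.52, adjusted p = 0.236). The 2 highest Drp2 levels, 90.3 and 69.6 CPM, were in libraries 17 and 22, which also had the most endothelial marker counts of their group, and the part of those cells in the Drp2 level was not tested.

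The other 5 members had intervals that included 0. Mbp, for the basic protein that lines the cytoplasmic faces of compact myelin, ran from 342 through 372 to 569 CPM in PSCs. It ran from 150 through 399 to 688 CPM in S100β-GFP+ cells, and the log2 fold change of 0.05 had a 95% interval of -0.66 to 0.75 (adjusted p = 0.925). PSCs thus held Mbp at a level that the test did not set apart from that of S100β-GFP+ cells, with the S100β-GFP+ libraries spread over the wider range. Mag, the myelin-associated glycoprotein, sits in the glial membrane that faces the axon. Its lowest, median and highest levels were 11.6, 18.0 and 26.5 CPM in PSCs. They were 8.65, 25.7 and 59.9 CPM in S100β-GFP+ cells, a log2 fold change of -0.54 with an interval of -1.25 to 0.17 (adjusted p = 0.210). The PSC range lay wholly within that of the S100β-GFP+ libraries.

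Prx encodes periaxin, the scaffold that binds Drp2. It had 32.4, 52.0 and 97.8 CPM as lowest, median and highest values in PSCs. The corresponding levels in S100β-GFP+ cells were 22.5, 80.0 and 131 CPM, for a log2 fold change of -0.38 (interval -1.01 to 0.24, adjusted p = 0.319). Prx exons overlap an antisense gene, Gm15541, which had 435 counts over all 27 libraries. Ncmap encodes the non-compact myelin associated protein. It had 49.6, 84.7 and 108 CPM in PSCs. In S100β-GFP+ cells it had 29.1, 98.8 and 163 CPM, and the log2 fold change was -0.24 (interval -0.94 to 0.47, adjusted p = 0.602). Mal encodes a small membrane protein that sorts lipids and proteins on their way to the myelin membrane. It ran from 7.53 through 42.1 to 60.5 CPM in PSCs. It ran from 28.6 through 63.0 to 105 CPM in S100β-GFP+ cells, a log2 fold change of -0.62 (interval -1.35 to 0.10, adjusted p = 0.153). For Mag, Prx, Ncmap and Mal the estimate lay below 0 in this comparison without passing the test, and the intervals run from a difference near or beyond 1 log2 unit downwards to a small one upwards.

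**Figure D2:**
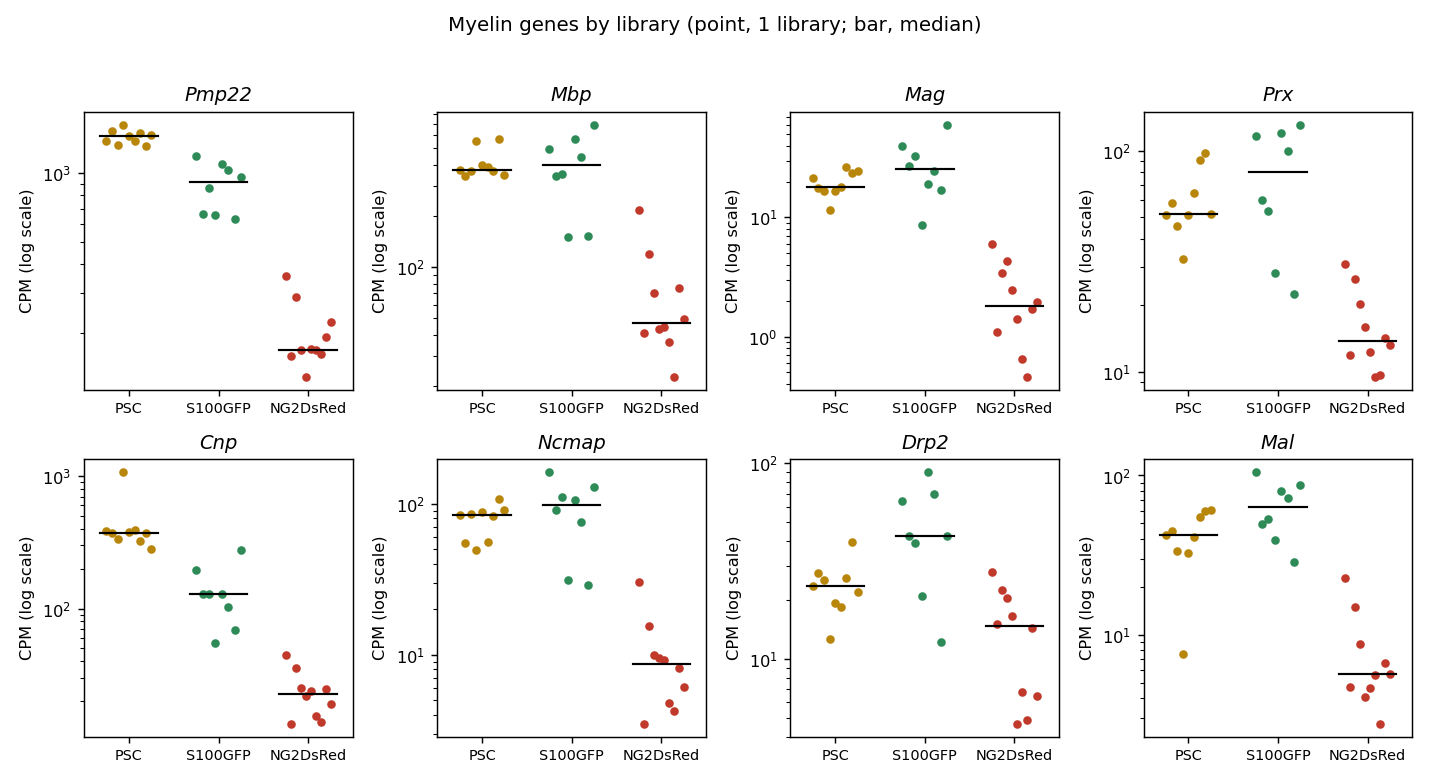
CPM (log scale) of the 8 members in every library, 1 panel per gene, with PSC, S100GFP and NG2DsRed libraries in separate columns, 1 point per library and a bar at the median. Pmp22 and Cnp were higher in all PSC libraries than in all S100GFP libraries, the other 6 members overlapped between these groups, and NG2DsRed libraries had the lowest median for each gene.

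Against NG2-dsRed+ cells, 7 of the 8 members were higher in PSCs, where 20.9% of all genes were called higher. The median log2 fold change was 2.68 over the members and 0.02 over all genes. Cnp had the largest difference, with 13.4 to 44.8 CPM in NG2-dsRed+ cells (median 22.8) and a log2 fold change of 4.19 ± 0.32 (SE, adjusted p = 6.46e-12), an 18.3-fold difference. Mag followed, with 0.456 to 5.96 CPM in NG2-dsRed+ cells (median 1.82) and 3.06 ± 0.36 (adjusted p = 5.50e-08). Ncmap, at 3.46 to 30.2 CPM (median 8.74), differed by 2.94 ± 0.35 (adjusted p = 5.58e-08). For each of these 3 genes library 2 held the highest NG2-dsRed+ value, which was still below the lowest PSC value.

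Pmp22 had 129 to 355 CPM in NG2-dsRed+ cells (median 170), 2.83 ± 0.18 below PSCs on the log2 scale (adjusted p = 2.05e-13). Mbp had 22.5 to 218 CPM (median 46.7) and a log2 fold change of 2.52 ± 0.34 (adjusted p = 5.01e-07). Mal had 2.74 to 22.7 CPM (median 5.62) and 2.37 ± 0.35 (adjusted p = 2.59e-06). The fitted change of each of these 3 genes was more than 5-fold. Prx had 9.49 to 30.9 CPM (median 13.8) and 1.88 ± 0.30 (adjusted p = 6.86e-06). Drp2, at 4.63 to 27.9 CPM in NG2-dsRed+ cells (median 14.8), had 0.77 ± 0.33 (adjusted p = 0.0631), and its range overlapped that of PSCs. Its call depended on the setting: DESeq2 gave 0.82 (adjusted p = 0.0335) and limma-voom 1.04 (adjusted p = 0.0152), and without NG2-dsRed+ libraries 2 and 9, an alternative chosen after seeing the data, it was 1.09 (adjusted p = 0.0116). The ranges of 6 members did not overlap and were higher in PSCs, which held for 5.08% of all genes. Mal was the other member that overlapped, through PSC library 18 alone, since the next PSC library stood at 32.6 CPM.

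S100β-GFP+ cells had all 8 members higher than NG2-dsRed+ cells, where 18.1% of all genes were called higher. The median log2 fold change was 2.49 over the members and -0.02 over all genes. Mag had the largest difference, 3.60 ± 0.38 (SE, adjusted p = 7.50e-09), followed by Ncmap with 3.18 ± 0.36 (adjusted p = 3.32e-08) and Mal with 3.00 ± 0.37 (adjusted p = 1.41e-07). Cnp differed by 2.51 ± 0.30, Mbp by 2.47 ± 0.35, Prx by 2.26 ± 0.31 and Pmp22 by 2.13 ± 0.18 on the log2 scale. Drp2 had the smallest difference, 1.77 ± 0.35 (adjusted p = 0.000163). For Pmp22, Mag, Cnp and Mal the ranges did not overlap and were higher in S100β-GFP+ cells, as for 7.21% of all genes. Mbp and Ncmap overlapped through NG2-dsRed+ library 2 alone. These comparisons share libraries with those of PSCs, so the 3 sets of values are not independent.

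NG2-dsRed+ libraries 2 and 9 had the 2 highest levels of 7 of the members, and of Mag they had the highest and the third. Library 2 also had the highest Sox10 of its group, 9.79 CPM, and the highest sum of Schwann cell markers, 88.5 CPM, whereas library 9 had a low Sox10, 2.28 CPM. Without both libraries all 7 members called against PSCs, and all 8 called against S100β-GFP+ cells, kept their calls. The part of other cells in the levels of these libraries was not tested.

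**Figure D3:**
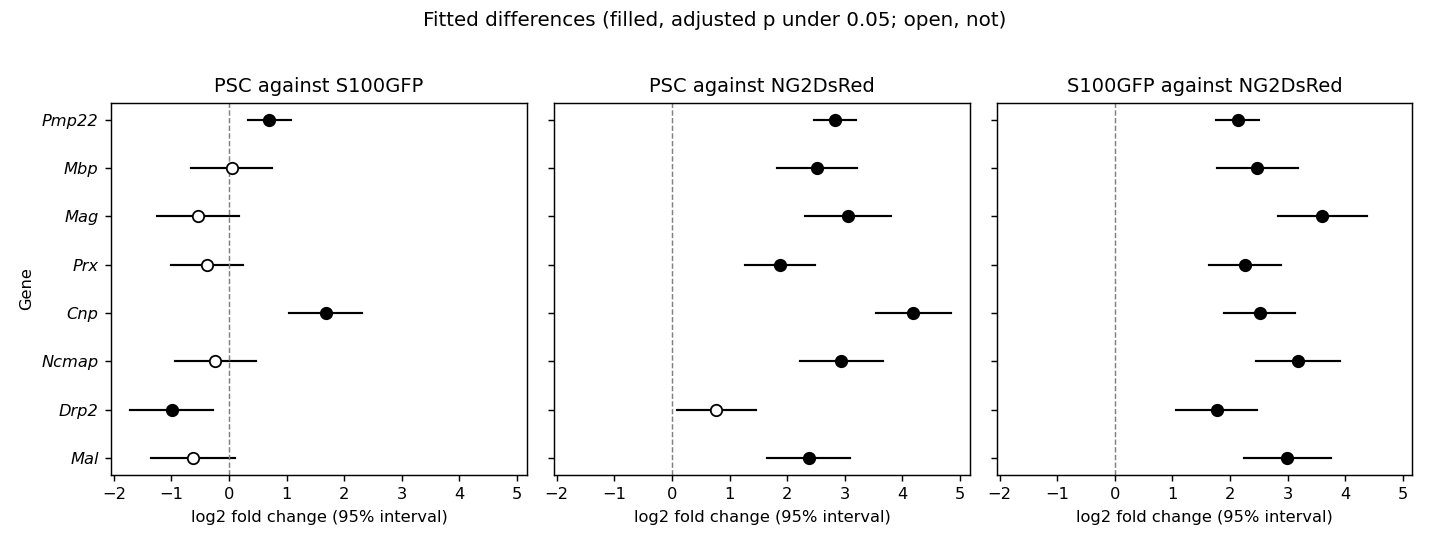
Fitted log2 fold changes of the 8 members with 95% intervals in the 3 comparisons, filled where the adjusted p was under 0.05. In the comparison of PSC with S100GFP libraries Pmp22 and Cnp lie above 0, Drp2 below it and 5 intervals include 0, while in the other comparisons all estimates lie above 0 and only that of Drp2 in PSC against NG2DsRed is open.

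To set levels of different genes beside each other, counts were also divided by exon length, as RPKM. In PSCs the order was Pmp22 with 612 ± 43.1 RPKM (SD, n = 9), Cnp with 119 ± 66.7, Mbp with 48.7 ± 10.1, Ncmap with 35.0 ± 8.87, Mal with 15.0 ± 5.93, Prx with 10.9 ± 3.80, Mag with 4.81 ± 1.16 and Drp2 with 2.78 ± 0.870. In S100β-GFP+ cells Pmp22 led with 377 ± 92.5 RPKM (n = 8), and Mbp, Ncmap and Cnp followed with 47.1 ± 22.4, 41.3 ± 20.7 and 37.3 ± 19.7. Those 3 levels lay within 1 SD of each other, and so did Mag and Drp2 below them, at 7.00 ± 3.89 and 5.57 ± 3.02. An SD is the spread between libraries and cannot decide the order of genes measured in the same libraries. The order within a group was not tested. In PSCs the neighbours Mal and Prx were also within 1 SD of Mal. NG2-dsRed+ cells had Pmp22 at 86.0 ± 29.5 RPKM (n = 10), Mbp at 8.49 ± 6.86, Cnp at 6.52 ± 2.73 and the other 5 at 0.573 to 4.55. By its mean Cnp thus stood above Mbp and Ncmap in PSCs, and below them, within their spread, in S100β-GFP+ cells. The lengths sum all annotated exons of a gene, and Mbp has long isoforms that raise its length to 8469 bases, which lowers its RPKM relative to the rest.

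The ratio of Cnp to each other member within a library does not depend on how libraries are scaled, and it was compared between the groups as a log2 ratio with an exact permutation test over libraries (two-sided, p-values adjusted over the 21 ratios). All 7 ratios were above those of S100β-GFP+ cells in PSCs. They share Cnp, the member with the largest fitted increase in PSCs against either other group. Their direction therefore follows from the fitted changes given above, and they are not 7 independent results. Relative to Drp2 the log2 ratio of Cnp was 5.36 ± 0.928 (SD) in PSCs and 2.80 ± 0.789 in S100β-GFP+ cells, a difference of 2.55 (adjusted p = 0.000165, exact permutation). Relative to Mal it was 3.04 ± 1.45 and 0.63 ± 0.437, a difference of 2.42 with the same adjusted p. Relative to Mbp it was 1.19 ± 0.431 and -0.33 ± 0.377, a difference of 1.52. Per exon length, Cnp was above Mbp in every PSC library and in 1 of 8 S100β-GFP+ libraries, where the ratio ran from -0.92 to 0.09. In CPM, which takes no account of length, Mbp was above Cnp in PSC libraries 12, 20, 31, 34 and 36. The smallest difference was that to Pmp22, 0.99 (adjusted p = 0.00253, exact permutation), with overlapping ranges. For the other 6 ratios no S100β-GFP+ library reached the lowest PSC library, and their unadjusted p, 8.23e-05, is the smallest that 9 against 8 libraries can give in this exact test.

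All 7 ratios were also higher in PSCs than in NG2-dsRed+ cells, by 0.82 relative to Mag up to 3.21 relative to Drp2. The ratio to Mag had an adjusted p of 0.0330 in the exact permutation test, and leaving out any 1 of 8 libraries (PSC 6, 18, 20 or 23, NG2-dsRed+ 2, 13, 15 or 35) lost the call, with differences of 0.56 to 0.82. Between S100β-GFP+ and NG2-dsRed+ cells, Cnp was lower relative to Mag by 1.28, to Ncmap by 0.80 and to Mal by 0.72, each with an adjusted p of at most 0.00756 (exact permutation). The ratios to Mbp (-0.16), Pmp22 (0.29), Prx (0.33) and Drp2 (0.65) did not pass there. Without S100β-GFP+ libraries 14, 17 and 22 the ratio to Mal lost its call (-0.44, adjusted p = 0.0867, exact permutation) and those to Pmp22, Prx and Drp2 gained one.

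**Figure D4:**
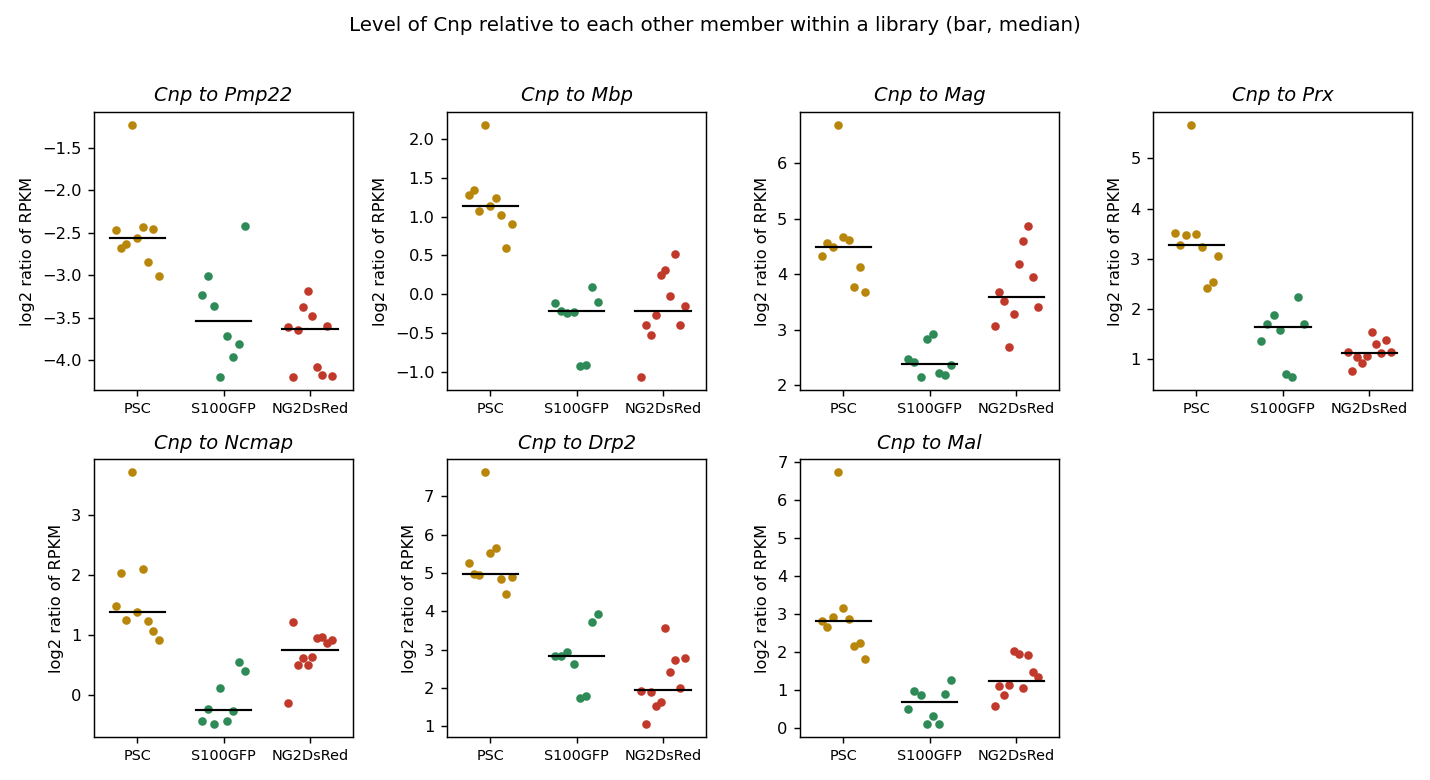
Log2 ratio of the RPKM of Cnp to that of each of the other 7 members within a library, with PSC, S100GFP and NG2DsRed libraries in separate columns, 1 point per library and a bar at the median. PSC libraries were highest in each panel by their median, with all PSC libraries above all S100GFP libraries except in the panel of Pmp22.

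Members were then set against Sox10, which marks the lineage whether or not a cell myelinates. This ratio was added after the data were seen and is given as a description. Sox10 ran from 379 to 703 CPM in PSCs, from 1.46 to 9.79 in NG2-dsRed+ cells and from 5.57 to 38.8 in S100β-GFP+ cells. Per length, the median ratio of Mbp to Sox10 was 0.283 in PSCs, 4.44 in NG2-dsRed+ cells and 7.91 in S100β-GFP+ cells. For Mag it was 0.0283 in PSCs and 1.08 in S100β-GFP+ cells, for Prx 0.0672 and 2.03, for Ncmap 0.236 and 6.00, for Drp2 0.0201 and 0.945, and for Mal 0.106 and 3.69. Cnp, at 0.622 and 5.94, and Pmp22, at 3.64 and 63.4, had smaller gaps between these groups than the other 6 members. For all 8 members every PSC library had a lower ratio to Sox10 than every library of the other groups. Sox10 itself was higher in every PSC library than in all others, and differed between PSCs and either other group by more than any member. A gene with equal levels in all groups would therefore also have a lower ratio in PSCs. The separation restates the level of Sox10 and is not particular to the members, and the share of all genes that separate in this way was not computed. The S100β-GFP+ and NG2-dsRed+ libraries also held markers of other cells, as given above, and the part of those cells in these ratios was not tested.

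**Figure D5:**
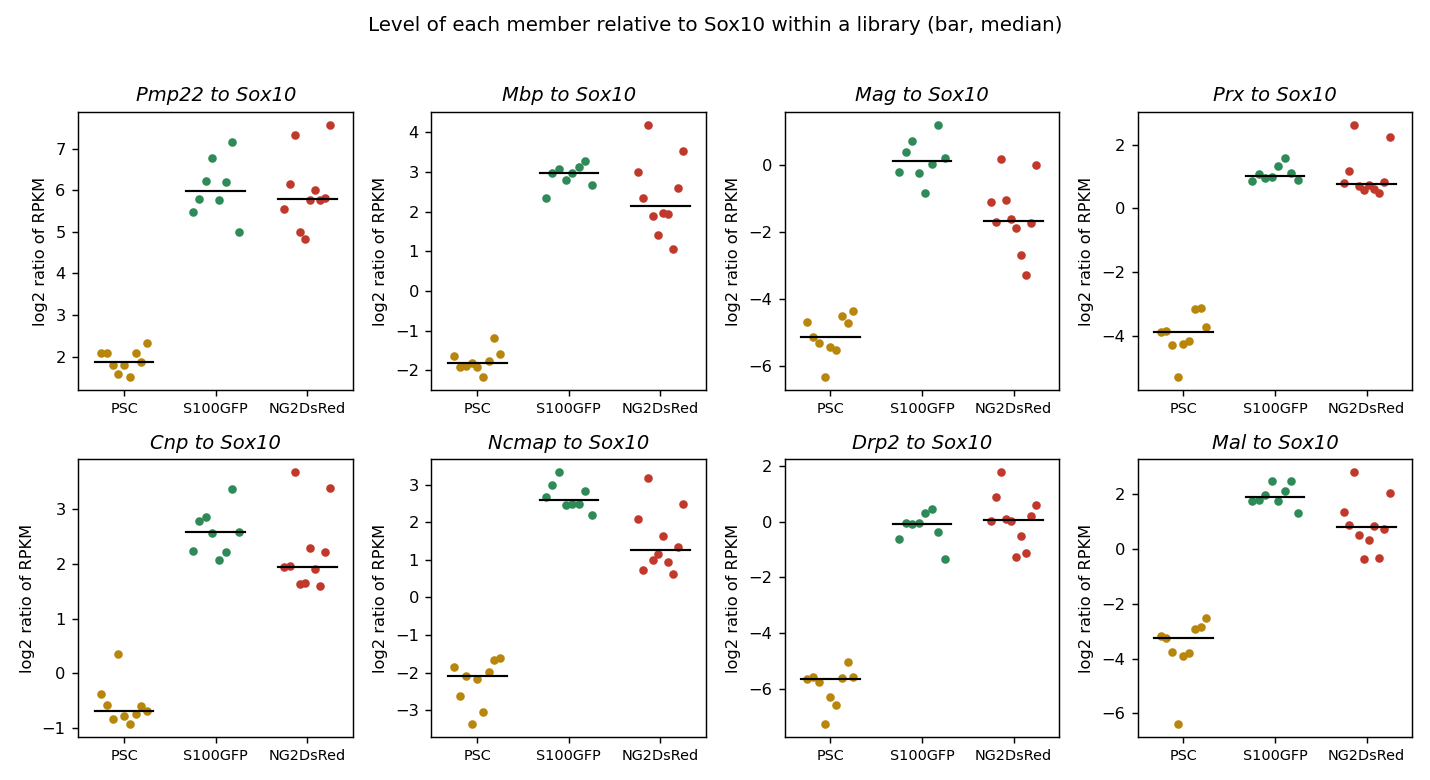
Log2 ratio of the RPKM of each member to that of Sox10 within a library, with PSC, S100GFP and NG2DsRed libraries in separate columns, 1 point per library and a bar at the median. All PSC libraries lie below all other libraries in each of the 8 panels. Sox10, the shared denominator, was itself higher in all PSC libraries than in all others.

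Variation from library to library was described within the S100β-GFP+ and within the PSC libraries, and the difference between them was not tested. Over the 8 S100β-GFP+ libraries the 28 pairs of members had Pearson correlations of log2 CPM from 0.43 to 0.98 with a median of 0.86 (median Spearman rho 0.80). Of these pairs 22 passed the exact permutation test of r, and 9 passed those of both r and rho, after adjustment over the family. The share of other gene pairs that would pass was computed in neither group. Such counts are therefore not shown to be particular to the members. Libraries 14 and 27 were the 2 lowest for Mbp, Pmp22, Mag, Prx, Cnp, Ncmap, Drp2 and Mal alike, in either order, and also for Sox10, at 7.76 and 5.57 CPM. Without the 2 libraries farthest from the median of the first gene of a pair, the median r was 0.63 and 1 of 28 lay below 0, so a part of the relation rests on those libraries.

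Over the 9 PSC libraries the median r was -0.0030 (median rho -0.067), 8 pairs passed the exact permutation test of r and 1 passed both. The median r was 0.24 without library 18, and 0.23 without the 2 libraries farthest from the median of the first gene of a pair, where 11 of 28 lay below 0. That pair was Mag and Mal, with r = 0.90 (adjusted p = 0.00797, exact permutation) and rho = 0.88 (adjusted p = 0.0319, exact permutation), and r was 0.89 without libraries 18 and 31. The 7 pairs with Cnp had a median r of -0.64, which was -0.27 without library 18. In library 18 Cnp was highest of all PSC libraries, at 1074 CPM, while Mag (11.6 CPM), Prx (32.4), Ncmap (49.6), Drp2 (12.6) and Mal (7.53) were lowest. It had the fewest detected genes, 14616 against 20203 or more in the other PSC libraries, and the highest Sox10 of its group, at 703 CPM, and its Dnajc7, at 98.5 CPM, was likewise the highest.

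Over all 27 libraries, 5 genes outside the members stood among the 6 whose log2 CPM correlated best with the mean standardized level of the 8. They were Kif1a (r = 0.96), a kinesin motor, Dusp15 (0.96), a phosphatase, Cldn19 (0.95), a claudin of Schwann cell tight junctions, Gldn (0.94), the glial ligand that gathers sodium channels at nodes, and Mlip (0.94), a lamin-interacting protein. Each correlation is a description over libraries that share 3 cell types. Kif1a was at 35.7 ± 9.32 CPM in PSCs, 3.15 ± 2.04 in NG2-dsRed+ cells and 37.1 ± 13.3 in S100β-GFP+ cells. Dusp15 was at 9.85 ± 3.00, 1.22 ± 0.764 and 12.6 ± 5.66 CPM in the same order. Like 5 of the 8 members, these genes did not pass the test between PSCs and S100β-GFP+ cells, with adjusted p of 0.0672 for Gldn and higher for the rest.

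Among 24 other genes of myelin, its lipids and the node, 23 could be tested. Against S100β-GFP+ cells, 8 were higher in PSCs, 4 were lower and 11 did not pass, with a median log2 fold change of -0.14. Of all genes, 22.9% were called higher and 24.1% lower in PSCs here. Aspa, which encodes aspartoacylase, was at 181 against 8.08 CPM, a log2 fold change of 4.49 ± 0.25 (SE, adjusted p = 1.93e-14). Cadm4, the adhesion molecule of the internode that binds axonal partners, differed by 4.12 ± 0.39, Gjc3, a connexin, by 3.31 ± 0.31, and Gal3st1, the sulfotransferase that makes sulfatide, by 3.27 ± 0.48. The 4 lower genes, named after their values were seen, were Ugt8a (-1.58), the enzyme that makes galactosylceramide, Mpp6 (-1.14), a scaffold of the channels through myelin, Litaf (-0.95), an endosomal protein, and Fig4 (-0.72), a lipid phosphatase. The enzymes of the steps from ceramide to sulfatide thus differed in opposite directions, with Gal3st1 at 70.0 against 7.32 CPM and Ugt8a at 10.7 against 32.1 CPM. Against NG2-dsRed+ cells 18 genes were higher in PSCs and 1, Tspan2, was lower, at 15.0 against 105 CPM. In that comparison 20.9% of all genes were called higher and 23.1% lower in PSCs. S100β-GFP+ cells had 18 higher and 2 lower than NG2-dsRed+ cells, where 18.1% of all genes were called higher and 15.2% lower. The largest changes were in Gjb1 (3.82), the connexin of cytoplasmic channels in myelin, Fa2h (3.10), which hydroxylates the fatty acids of myelin lipids, and Ugt8a (2.96). Gjb1 had 18 counts in total over the 10 NG2-dsRed+ libraries, 5 of which had none, so its value rests on few counts.

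Of 20 regulators of Schwann cell myelination, 10 were above the level of S100β-GFP+ cells in PSCs, 2 were lower and 8 did not pass, with a median of 0.65. The shares over all genes were 22.9% higher and 24.1% lower. Rxrg, a retinoid receptor, differed by 5.72 ± 0.35 (SE, adjusted p = 9.25e-14), Pou3f1, the POU factor of promyelinating Schwann cells, by 4.79 ± 0.46, Sox10 by 4.65 ± 0.37, and Erbb3, the receptor for axonal neuregulin, by 4.49 ± 0.38 on the log2 scale. Egr2 had 36.8 to 78.6 CPM in PSCs and 41.1 to 124 CPM in S100β-GFP+ cells, and did not pass (-0.37 ± 0.20, adjusted p = 0.133). It did not pass against NG2-dsRed+ cells either (0.34, adjusted p = 0.154), which had 30.4 to 62.9 CPM, whereas S100β-GFP+ cells were above NG2-dsRed+ cells by 0.71 (adjusted p = 0.00532). In S100β-GFP+ library 3, the highest for Egr2, macrophage and leukocyte markers summed to 1372 CPM, the most of its group. Libraries 14, 17 and 22, the lowest for Egr2 at 41.1, 45.9 and 48.1 CPM, had the lowest sums, 403, 255 and 199 CPM. In NG2-dsRed+ libraries Egr2 stood beside a Sox10 of 1.46 to 9.79 CPM. The part of other cells in the Egr2 levels was not tested. Against NG2-dsRed+ cells 9 regulators were higher and 3 lower in PSCs, and 7 were higher and 6 lower in S100β-GFP+ cells. All genes had shares of 20.9% higher and 23.1% lower in PSCs, and 18.1% higher and 15.2% lower in S100β-GFP+ cells.

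Drp2 acts in a complex with dystroglycan, and 14 genes of dystroglycan complexes and laminins were tested beside it. In PSCs 8 were higher than in S100β-GFP+ cells, 2 were lower and 4 did not pass, where 22.9% of all genes were called higher and 24.1% lower. The median log2 fold change was 0.91, while Drp2 itself had -0.999. Dag1, which encodes dystroglycan, was at 2287 to 3656 CPM in PSCs and at 175 to 428 CPM in S100β-GFP+ cells, a log2 fold change of 3.40 ± 0.17 (SE, adjusted p = 5.30e-15). Sntb1, a syntrophin, differed by 3.28 ± 0.51, Dmd, which encodes dystrophin, by 3.00 ± 0.25, and Dtna, which encodes dystrobrevin alpha, by 2.14 ± 0.31. The 2 lower genes, named after their values were seen, were the laminin chains Lama2 (-1.92) and Lamb1 (-0.97). Against NG2-dsRed+ cells 5 were higher and 3 lower in PSCs, with Dag1 at 3.03, and 1 was higher and 6 lower in S100β-GFP+ cells. Of all genes 20.9% were called higher and 23.1% lower in PSCs, and 18.1% higher and 15.2% lower in S100β-GFP+ cells. The 3 lower in PSCs are thus near the share of all genes.

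Of 18 genes of immature and non-myelinating Schwann cells 12 could be tested, and 6 of them had higher levels in PSCs than in S100β-GFP+ cells, 3 were lower and 3 did not pass. Over all genes 22.9% were called higher and 24.1% lower, so the lower ones were about as frequent here as among all genes. The neural adhesion molecules Ncam1 (5.02 ± 0.19, SE), Cdh19 (5.01 ± 0.46) and L1cam (4.45 ± 0.45), and the transcription factor Sox2 (3.85 ± 0.64), had the largest log2 fold changes. The 3 lower genes, named after their values were seen, were Gap43 (-3.47 ± 0.74), Id2 (-2.69) and Scn7a (-1.90). Gap43, a growth-associated protein of axons and immature Schwann cells, had 0.209 to 2.39 CPM in 8 PSC libraries and 39.9 CPM in library 18, against 18.4 to 101 CPM in S100β-GFP+ cells. PSCs thus had Mbp, Mag, Prx, Ncmap and Mal at levels that did not pass the test against S100β-GFP+ cells while Ncam1 and L1cam were more than 20-fold higher. Against NG2-dsRed+ cells 5 of the 12 were higher and 2 lower in PSCs, and 6 were higher and 3 lower in S100β-GFP+ cells. The shares over all genes were 20.9% and 23.1% in PSCs, and 18.1% and 15.2% in S100β-GFP+ cells.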

How the data were processed

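Juvenile S100β-GFP;NG2-dsRed muscle was dissociated and sorted by FACS, RNA was isolated with PicoPure columns and amplified with SMART-Seq v4, and the libraries were sequenced. Per the methods and the labels, reads were trimmed with ea-utils and Btrim, aligned with HISAT2 to GRCm38 and counted per gene with HTSeq, with versions, annotation and use of strand not given in the sources used here. The counts deposited by the authors are whole numbers without normalization. Libraries were matched to columns by number, and the design text names 7 S100β-GFP+ libraries where the table has 8. Libraries of 1 kind differed beyond counting error (smallest chi-square divided by its degrees of freedom, 8.99), so none was merged. The labels do not say whether the 3 kinds of cells came from the same mice.

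Symbols and exon lengths came from GENCODE M21, which held 52489 of the 52636 identifiers, and promoters from RefSeq. In R 4.3.3, edgeR 4.0.16 was run with TMM scaling, filterByExpr at a minimum count of 10 (15330 genes), 1 quasi-likelihood fit of all libraries, and Benjamini-Hochberg adjustment at 0.05. Fits report log2 fold changes, with standard errors taken from the F statistic and 95% intervals. Ratios added 0.5 to each count. Correlations used all permutations in place of a planned random sample of them, since groups had fewer than 10 libraries. PCR duplicates are part of the counts, so precision from counting is overstated, and depth limits Mag most.

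The members and lists were chosen with earlier results of these data known. The qPCR and imaging of the study were not analysed here. Named beside the members were up to 4 genes of each list with the largest called change, Egr2 and Sox10, and the 6 genes most correlated with the members. A few of the genes that this rule names are not reported here. Alternatives were DESeq2 1.42.0, its size factors, no filter on low counts, only the 2 cell types compared, limma-voom (limma 3.58.1) with quality weights, the share of Lars2, Gm23935 and Gm15564 as a term, and leaving out libraries. On simulated counts with 200 changed genes, edgeR recovered 91.84% of 4-fold and 13.54% of 2-fold changes in PSCs against S100β-GFP+ cells, and 0.962% of its calls were false, with 15102 genes tested. Every simulated gene had the same spread, and far fewer genes changed than were called in the data, so these rates hold for the simulated setting only.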

Additional observations from a re-analysis of the deposited data

Results flagged for a closer look

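Cnp stood at 1074 CPM in PSC library 18, the highest of the 9 PSC libraries and far from the next, 395 CPM in library 23. The gap was 0.746 of the whole range of the group. Mal stood at 7.53 CPM in the same library, the lowest of its group and far from the next, 32.6 CPM in library 20, with a gap of 0.701 of the range. These were 2 of 24 sets of libraries examined in this way, 8 genes in 3 cell types, and chance alone flags about 1 set in 20.

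In library 18 Sox10, at 703 CPM, and Pou3f1, at 3179 CPM, were also the highest of the PSC libraries, and Erbb3, at 165 CPM, was the lowest. Its summed markers of satellite cells and muscle fibres, at 1426 CPM, were the highest of all libraries. The part of these genes and of other cells in the levels of Cnp and Mal was not tested.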

How the results depend on the processing

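Of the 8 members, Mbp, Pmp22, Mag, Prx, Cnp, Ncmap and Mal kept their side of the threshold in all 3 comparisons under all alternatives run, and so did Drp2 between S100β-GFP+ and NG2-dsRed+ cells. Drp2 in PSCs against S100β-GFP+ cells lost its call with limma-voom, with the share of Lars2, Gm23935 and Gm15564 as a term (-0.79, adjusted p = 0.115), without S100β-GFP+ libraries 14, 17 and 22 and without library 17. Drp2 in PSCs against NG2-dsRed+ cells gained a call in 7 alternatives and when 1 of 6 libraries was left out. Between S100β-GFP+ and NG2-dsRed+ cells the ratios of Cnp to Prx and to Drp2 gained a call without S100β-GFP+ library 17 or 22, and that to Drp2 also without NG2-dsRed+ library 21. No called value changed direction. Without a filter on low counts 16556 genes were called between PSCs and S100β-GFP+ cells, against 7198 with it, and 10586 between S100β-GFP+ and NG2-dsRed+ cells, against 5099; the cause was not tested. Leaving out each library gave 6825 to 7918, 6315 to 7412 and 4617 to 5940 called genes in the 3 comparisons, and 2 to 3, 7 to 8 and 8 called members. No paired analysis was run. Each library has a number of its own, and the labels do not say whether the groups compared share mice. On simulated counts 13.54% of 2-fold changes between PSCs and S100β-GFP+ cells were recovered. That rate holds for the simulated setting only, so how often a difference of that size is missed in the data is not known.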
